A study of Homo sapiens with 9 samples.

Results

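These 64 protein-coding genes had higher RNA with wild-type p65 and lower RNA with p65 2CS than with vector, so that the vector libraries lay between both p65 forms. They were chosen by measured values. With CPM as the count divided by the library's total count and multiplied by 1000000, a gene was taken where the vector mean was at least 5 CPM, the p65 WT mean at least 1.1 times the vector mean, and the p65 2CS mean no more than the vector mean divided by 1.1. Every p65 WT library also had to lie above every vector library, and every p65 2CS library below every vector library. Of 58735 genes in the count table, 11270 were protein-coding with a vector mean of at least 5 CPM. Of these, 67 met the limits, and the 64 are those left after MSN, COL5A1 and MARCKS were set aside by name. Since the CPM values made the choice, differences among vector, p65 WT and p65 2CS are given for the 64 genes as a description, and the counts of test calls printed for them once below are a description too.

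The study asked how palmitoylation of p65, the attachment of a fatty acid to the protein, bears on gene expression. All 9 libraries came from HEK293A cells, an adherent line derived from human embryonic kidney, that lacked p65 by knockout. The cells received a vector plasmid (vector, libraries 1 to 3), a p65 WT plasmid (libraries 4 to 6) or a p65 2CS plasmid (libraries 7 to 9), and were given TNFα at 20 ng/mL for 2 h, starting 24 h after transfection. Knockout, transfection and TNFα were thus shared by every group. The labels do not spell out 2CS. They do not say whether the knockout line was 1 clone, nor if libraries sharing a group are separate cultures, so p-values below measure the spread between these libraries, which may be technical.

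p65 is the product of RELA and the main activating subunit of NF-kB, a transcription factor that inhibitor proteins hold in the cytoplasm until TNF receptor signalling frees it to enter the nucleus. In epithelial cells it drives inhibitors of its own pathway, chemokines, and adhesion and survival genes. Cells without p65 can still express the other Rel family subunits.

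RELA counts, which include the transfected plasmid's RNA as far as it aligns, took 0.00665% to 0.00699% of all counts with vector, 0.793% to 0.972% under p65 WT and 2.40% to 2.69% under p65 2CS. The level of RELA RNA therefore moved with the form of p65, and a difference in form cannot be told apart from a difference in amount. Total counts ran from 15989601 to 25068515 per library. Of the cell markers examined, all 6 of the HEK293 list were detected, with a summed level of 1155 to 1182 CPM with vector, 1077 to 1132 under p65 WT and 997 to 1031 under p65 2CS, nearly all of it KRT8 and KRT18, while PAX2, NEFM and INA were low. The 8 leukocyte markers summed to 4.05 to 4.13, 5.19 to 6.12 and 5.47 to 5.78 CPM in the same order, 3 of 8 were tested, and HBB was at 0 in every library. The 8 fibroblast and endothelium markers, 5 of them tested, summed to 11.3 to 11.4 CPM with vector, 37.2 to 43.1 under p65 WT and 13.5 to 16 under p65 2CS, mostly through VWF and CDH5, and DCN was at 0 with vector and p65 2CS. The part of these markers in the levels of the 64 genes was not tested. Each library is RNA from a whole culture, in which fewer cells carrying an RNA and less of it per cell cannot be told apart.

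The opposite steps were small. Over the 64 genes the p65 WT mean was 1.1 to 1.78 times the vector mean, with a median of 1.2, and the vector mean was 1.1 to 1.89 times the p65 2CS mean, with a median of 1.14. Between both p65 forms the step was 1.23 to 2.84 times, with a median of 1.38. It reached 1.5 times in 16 genes and 2 times in 2, KCNA1 and PTCHD1. In 29 genes both steps away from vector were under 1.2 times, and in 7 both were at least 1.2 times. The rise with p65 WT was the larger step in 43 genes and the fall with p65 2CS in 21. In the 64 genes the median coefficient of variation within a group was 4.0% with vector, 3.65% under p65 WT and 3.92% under p65 2CS. The rule favoured genes with a small spread, since it let no group overlap another, so these values do not describe other genes.

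Summed over the 64 genes, the level was 3761, 3794 and 3782 CPM in libraries 1 to 3, 4505, 4499 and 4603 CPM in the p65 WT libraries, and 3305, 3313 and 3333 CPM in the p65 2CS libraries. The sums did not overlap between groups, as the rule required of each gene. Relative to the vector mean, the median gene of the 64 stood at 1.2, 1.2 and 1.23 in the p65 WT libraries and at 0.870, 0.866 and 0.876 in the p65 2CS libraries. Over all 11270 protein-coding genes at this level the medians were 0.946 to 0.956 under p65 WT and 0.982 to 0.985 under p65 2CS, so the median gene was slightly below vector on this scale with either form.

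**Figure D1:**
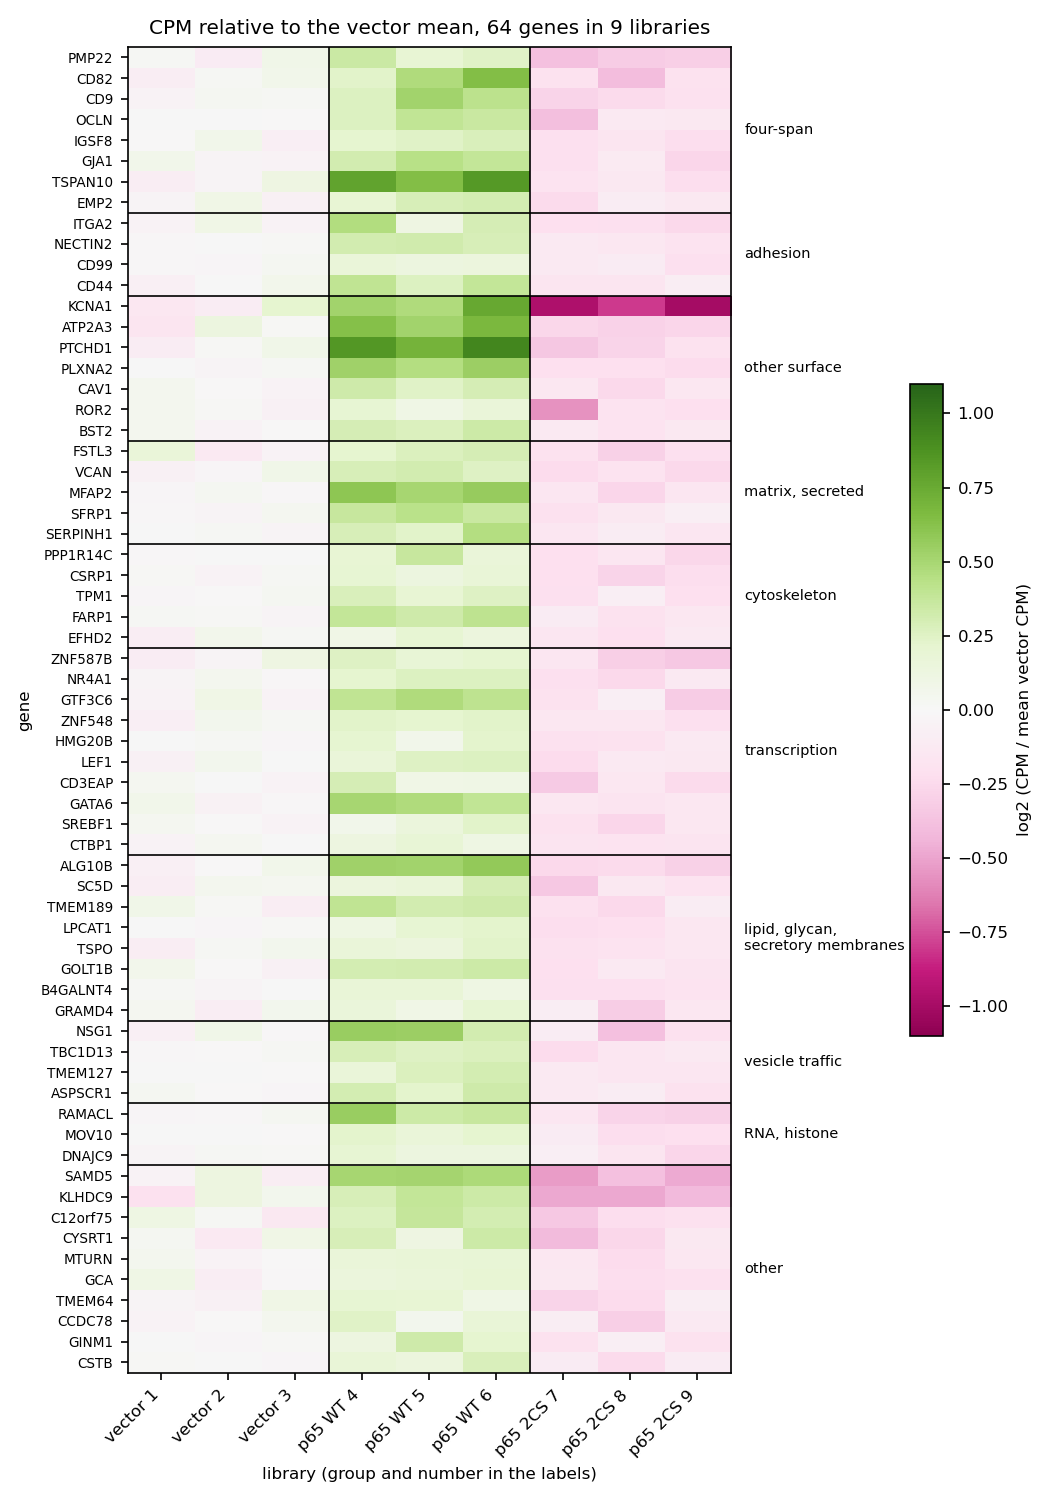
Level of each of the 64 genes (rows, grouped by role) in the 9 libraries (columns), as log2 of its CPM over the vector mean of that gene. Every p65 WT column is above 0 and every p65 2CS column below 0, which is how the genes were chosen; KCNA1 and PTCHD1 have the widest span.

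The opposite pattern, lower with p65 WT and higher with p65 2CS under the same limits, held for 138 genes. In all, 1275 of the 11270 genes met the limits for a rise with p65 WT and 1999 those for a fall with p65 2CS, against 3016 that fell with p65 WT and 1370 that rose with p65 2CS. With both forms 525 genes met the limits for a rise and 991 those for a fall. The 64 genes were thus among the rarer outcomes, at 0.568% of the 11270.

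**Figure D2:**
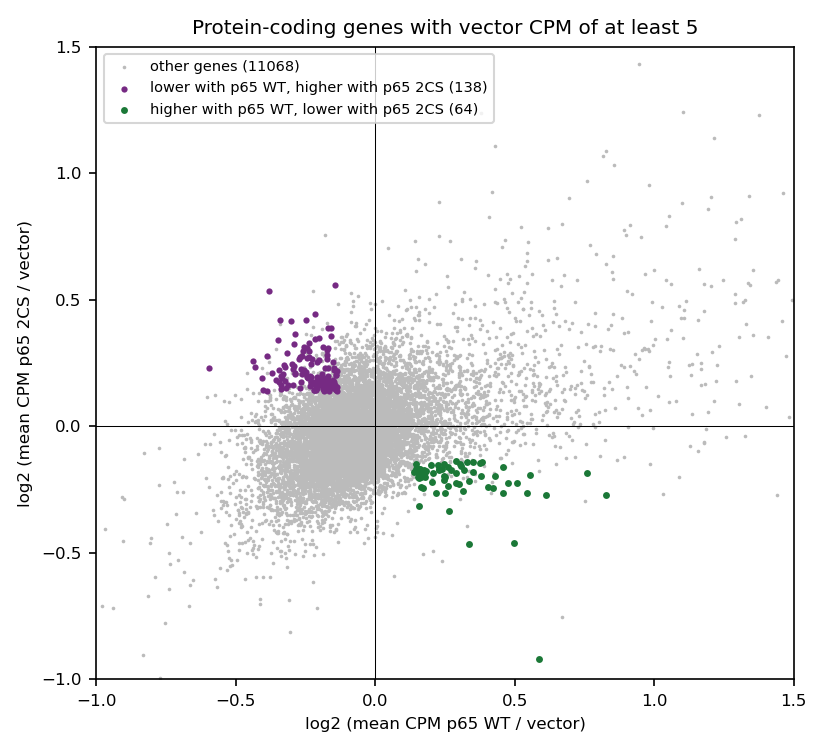
Each point is a protein-coding gene with a vector mean of at least 5 CPM, placed by the log2 ratio of p65 WT to vector (horizontal) and of p65 2CS to vector (vertical), with the 64 genes and the 138 genes of the opposite pattern marked. The 64 lie in the lower right corner by choice, close to the limits of 1.1 times; 70 genes, none of the 64, fall outside the axes.

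A separate fit, edgeR's quasi-likelihood test with TMM scaling over 18195 genes, tested all 64. With a threshold of adjusted p under 0.05 it called 59 of the 64 higher with p65 WT than with vector and none lower, beside 16.4% of all genes tested called higher and 12.5% called lower. It called 48 lower with p65 2CS than with vector and none higher, beside 11.4% of all genes called lower and 12.1% called higher. All 64 were called lower with p65 2CS than with p65 WT, beside 17.9% of all genes lower and 13.4% higher. Both vector comparisons called 47. These counts come from the libraries that chose the genes and support nothing. CYSRT1, GCA, CCDC78, ROR2 and CD3EAP were not called with p65 WT. The 16 not called with p65 2CS were RAMACL, ITGA2, CD82, TSPAN10, SFRP1, CYSRT1, GCA, TMEM64, CCDC78, GINM1, PTCHD1, ZNF548, LEF1, CD3EAP, GATA6 and NSG1. Without vector library 2, 31 rather than 48 were called lower with p65 2CS.

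Of the 64 genes, 8 encode proteins with 4 membrane spans or a partner of them. Tetraspanins cross the membrane 4 times and gather integrins and other partners into patches. CD9 (chromosome 12, 6199715 to 6238271 on GRCh38), a tetraspanin of cell fusion and migration, stood at 58.1, 61.3 and 61 CPM with vector, 72.1, 86.2 and 80.1 under p65 WT and 49.7, 50.7 and 52.3 under p65 2CS. The p65 WT mean was 1.32 times and the p65 2CS mean 0.846 times the vector mean. CD82 (chromosome 11, 44564427 to 44620363), a tetraspanin known as a suppressor of metastasis, was measured at 6.32, 6.84 and 7.09 CPM with vector, 7.97, 9.32 and 10.5 under p65 WT and 5.89, 5.11 and 5.89 under p65 2CS. No group of CD82 overlapped another, by the rule. TSPAN10 (chromosome 17, 81637171 to 81648749), a tetraspanin of the group that handles the protease ADAM10, read 9.19, 9.62 and 10.6 CPM with vector, 16.9, 15.3 and 17.6 under p65 WT and 8.63, 8.9 and 8.37 under p65 2CS. For TSPAN10 most of the span was the rise with p65 WT, at 1.69 times vector, while p65 2CS stood at 0.88 times and close under the lowest vector library.

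IGSF8, an immunoglobulin-domain partner of CD9 and CD81, averaged 35.6 ± 1.92 CPM with vector, 42.4 ± 0.879 under p65 WT and 31 ± 0.661 under p65 2CS (mean ± SD, n = 3 here and below). PMP22 (chromosome 17, 15229777 to 15265357), a myelin protein that also sits at epithelial junctions, was at 17.7, 16.2 and 18.5 CPM with vector, 22.2, 20.01 and 20.7 under p65 WT and 13.4, 13.9 and 14.2 under p65 2CS. Its fall was the larger step, to 0.792 times vector, against 1.2 times with p65 WT. EMP2, of the same family as PMP22, averaged 89 ± 5.32, 107 ± 4.14 and 79.7 ± 3.97 CPM in that order. The tight junction protein OCLN, occludin, averaged 30.2 ± 0.0647, 38.1 ± 1.74 and 26 ± 2.5 CPM, and the gap junction channel GJA1, connexin 43, 68.4 ± 3.11, 88.9 ± 3.68 and 59.7 ± 3.15 CPM. OCLN, EMP2, PMP22 and GJA1 are all proteins of cell contacts, and each of their steps away from vector was between 1.12 and 1.3 times.

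The adhesion molecules proper were NECTIN2, CD99, CD44 and ITGA2. NECTIN2 (chromosome 19, 44846175 to 44889228), which binds nectins on the next cell and the immune receptor TIGIT, had one of the 5 highest vector levels of the 64 by CPM, with 168, 171 and 172 CPM with vector, 212, 212 and 208 under p65 WT and 155, 154 and 150.1 under p65 2CS. CD44 (chromosome 11, 35138870 to 35232402), the hyaluronan receptor, read 66.4, 69.98 and 73.1 CPM with vector, 92.4, 83.6 and 91 under p65 WT and 62.1, 62.1 and 65.7 under p65 2CS, the highest p65 2CS library falling just short of the lowest vector library. CD99 (chromosome X, 2691133 to 2741309 for its X-linked copy), a glycoprotein of leukocyte passage through endothelium, read 90.005, 89.5 and 92.9 CPM with vector, 102, 99.6 and 99.95 under p65 WT and 82.9, 84.2 and 78.3 under p65 2CS. It lies in the pseudoautosomal region, whose X and Y copies are near identical, so its count depends on how reads with several matches were treated. ITGA2 (chromosome 5, 52989326 to 53094779), the integrin subunit that pairs with ITGB1 to bind collagen, was at 13.8, 15.2 and 13.8 CPM with vector, 19.7, 15.5 and 17.6 under p65 WT and 12.2, 12.4 and 12 under p65 2CS. Its lowest p65 WT library lay only a little above its highest vector library.

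**Figure D3:**
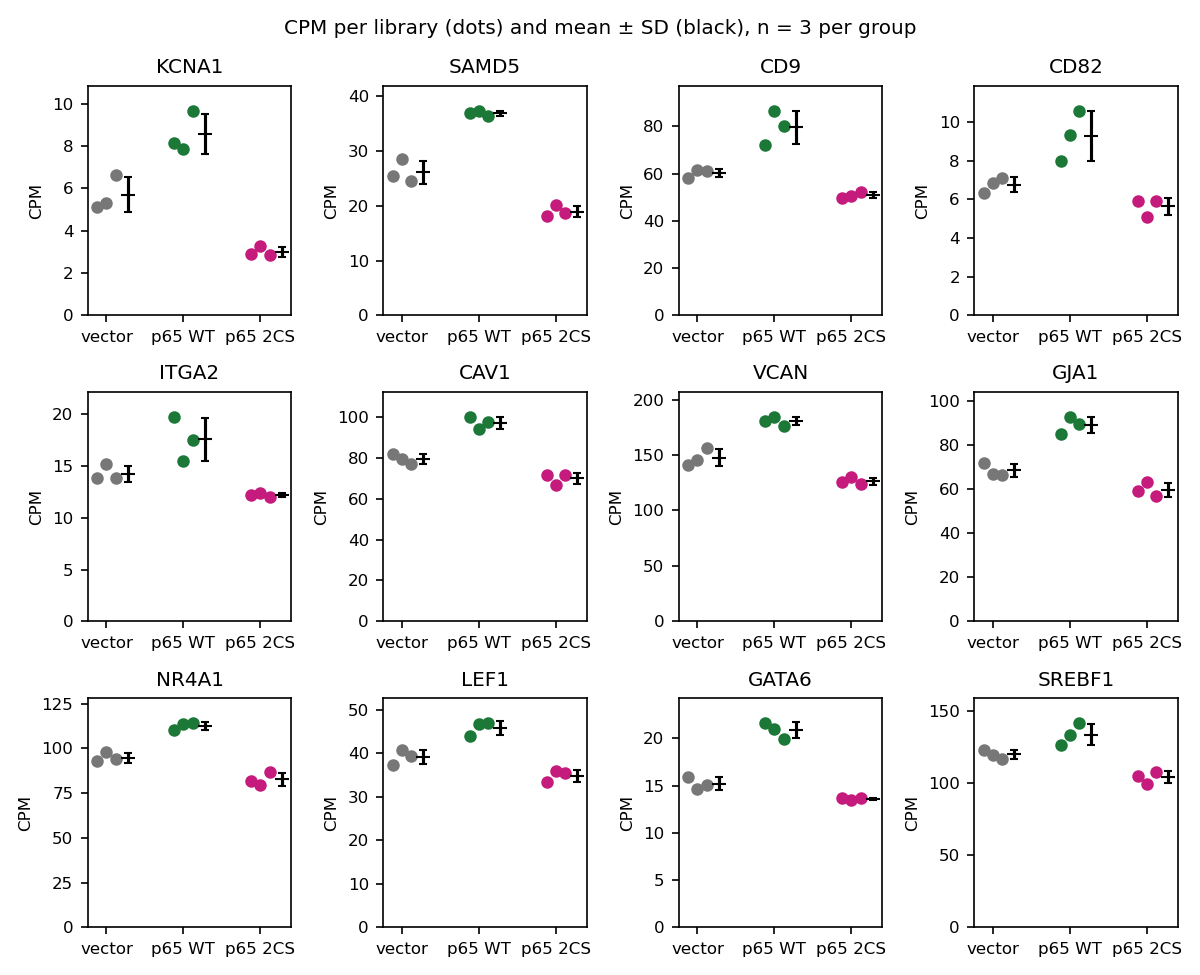
CPM (vertical axis, from 0) of 12 members in each library, with 3 dots per group and, in black, the group mean ± SD. No group overlaps another, by choice of the genes; the p65 WT mean of KCNA1 is 1.5 times and that of GATA6 1.37 times the vector mean.

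Among other surface proteins, KCNA1 had the widest span of the 64. KCNA1 (chromosome 12, 4909905 to 4918256), a voltage-gated potassium channel subunit of axons, was measured at 5.14, 5.31 and 6.64 CPM with vector, 8.15, 7.88 and 9.63 under p65 WT and 2.92, 3.27 and 2.84 under p65 2CS. The p65 2CS mean was 0.529 times and the p65 WT mean 1.5 times the vector mean, and its vector level of 0.713 counts per kilobase and 1000000 counts was above only that of PTCHD1, at 0.557, among the 64. PTCHD1 (chromosome X, 23334016 to 23404372), a patched-domain protein linked to neurodevelopment, read 7.14, 7.69 and 8.09 CPM with vector, 13.7, 12.4 and 14.6 under p65 WT and 6.01, 6.3 and 6.68 under p65 2CS. Its rise with p65 WT, to 1.78 times vector, was the largest of the set. ATP2A3 (chromosome 17, 3923870 to 3964464), a calcium pump of the endoplasmic reticulum listed here with the ion pumps, was at 12.5, 15.4 and 14.2 CPM with vector, 21.7, 20.1 and 22.4 under p65 WT and 11.7, 11.5 and 11.6 under p65 2CS. The 3 vector libraries of ATP2A3 spread more than either p65 group, from close to the p65 2CS level upward.

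PLXNA2 (chromosome 1, 208022242 to 208244320), a receptor for semaphorin guidance cues, read 42, 41 and 42.5 CPM with vector, 60.2, 57 and 61.1 under p65 WT and 35.9, 35.9 and 35.4 under p65 2CS. Both of its steps were clear of the spread, with a p65 WT mean 1.42 times vector. CAV1, the coat protein of caveolae, averaged 79.3 ± 2.45 CPM with vector, 97 ± 2.87 under p65 WT and 69.8 ± 2.75 under p65 2CS. BST2, tetherin, which holds budding virus at the cell surface, averaged 97 ± 2.99, 119.6 ± 3.23 and 87.4 ± 1.83 CPM, and had the highest vector level per kilobase of gene length of the 64, at 86.7 counts per kilobase and 1000000 counts. ROR2, a WNT5A receptor, averaged 12.7 ± 0.477, 14.1 ± 0.477 and 10.2 ± 1.43 CPM, mostly a fall with p65 2CS.

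The members grouped as matrix and secreted factors were VCAN, MFAP2, FSTL3 and SFRP1, with SERPINH1 placed here as a chaperone of collagen. SERPINH1 (chromosome 11, 75562056 to 75572783), the collagen chaperone HSP47, read 176, 178 and 172 CPM with vector, 214, 206 and 239 under p65 WT and 156, 163 and 157 under p65 2CS. Library 6 was higher than the other p65 WT libraries, and the step down to p65 2CS, to 0.908 times vector, was near the limit. VCAN (chromosome 5, 83471465 to 83582303), the large matrix proteoglycan versican, was at 141, 146 and 156 CPM with vector, 181, 184 and 176 under p65 WT and 125, 129.9 and 124 under p65 2CS. MFAP2 (chromosome 1, 16974502 to 16980835), a glycoprotein of elastic microfibrils, read 49.5, 51.3 and 49.6 CPM with vector, 75.8, 71 and 74.3 under p65 WT and 45, 41.6 and 44.8 under p65 2CS. Its p65 WT mean was 1.47 times vector, the largest rise in this group. FSTL3 (chromosome 19, 676365 to 683399), which binds activin and blocks it, was at 29.1, 23.6 and 25 CPM with vector, 30.1, 31.2 and 31.7 under p65 WT and 22.6, 21 and 22.4 under p65 2CS, and vector library 1 came close to the p65 WT libraries. SFRP1, a secreted WNT antagonist, averaged 23.4 ± 0.607, 30.5 ± 0.866 and 21.2 ± 0.843 CPM.

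A further 8 were lipid and glycan enzymes or other membrane proteins grouped with them. LPCAT1 (chromosome 5, 1456480 to 1523977), which rebuilds phosphatidylcholine from its lyso form, had the highest vector level of the 64 by CPM, at 186, 183 and 188 CPM, against 201, 214 and 218 under p65 WT and 159, 159.9 and 167 under p65 2CS. ALG10B (chromosome 12, 38316578 to 38329728), which adds the last glucose to the sugar precursor of protein N-glycosylation, read 42.9, 44.8 and 47.4 CPM with vector, 65, 64.5 and 67.5 under p65 WT and 37.7, 38.1 and 36.6 under p65 2CS. It showed one of the larger rises, to 1.46 times vector. SC5D (chromosome 11, 121292453 to 121308694), an enzyme late in cholesterol synthesis, was at 46.8, 51.4 and 51.2 CPM with vector, 55, 55.8 and 61.2 under p65 WT and 39.4, 45 and 43.8 under p65 2CS. The remaining 5 were TMEM189, a desaturase that makes plasmalogens, TSPO, a protein of the mitochondrial outer membrane, GOLT1B, a Golgi transport protein, the glycosyltransferase B4GALNT4, and GRAMD4, a GRAM-domain protein. They had p65 WT means of 1.11 to 1.27 times and p65 2CS means of 0.871 to 0.887 times vector.

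SREBF1 (chromosome 17, 17810399 to 17837002), the transcription factor that drives fatty acid synthesis genes, read 123, 119.7 and 117 CPM with vector, 126, 133 and 141 under p65 WT and 105, 99.4 and 108 under p65 2CS. It was one of 10 members that act in transcription. CTBP1 (chromosome 4, 1211448 to 1249953), a corepressor, was at 178, 188 and 183 CPM with vector, 200.4, 208 and 197 under p65 WT and 162, 161 and 162 under p65 2CS, and HMG20B (chromosome 19, 3572777 to 3579088), a subunit of the LSD1 corepressor complex, at 166, 168 and 163 CPM with vector, 192, 174 and 194 under p65 WT and 144, 145 and 152 under p65 2CS. One p65 WT library of HMG20B, number 5, lay near its highest vector library. ZNF548 (chromosome 19, 57389850 to 57402992), a zinc finger protein, read 22.8, 25.1 and 24.6 CPM with vector, 28.4, 28.1 and 28.5 under p65 WT and 21.8, 21.7 and 20.9 under p65 2CS, and ZNF587B (chromosome 19, 57819741 to 57846238), another, 20.6, 21.6 and 23.8 CPM with vector, 26.2, 25.1 and 25.5 under p65 WT and 19.7, 17.9 and 17.4 under p65 2CS. Of the others, the orphan nuclear receptor NR4A1, an immediate early gene, averaged 94.9 ± 2.79 CPM with vector, 113 ± 2.04 under p65 WT and 82.7 ± 3.48 under p65 2CS. GATA6, a factor of endoderm and heart, averaged 15.2 ± 0.698, 20.8 ± 0.827 and 13.6 ± 0.129 CPM, and LEF1, a nuclear partner of beta-catenin, 39.2 ± 1.66, 45.9 ± 1.63 and 34.9 ± 1.37 CPM. GTF3C6, a subunit of the RNA polymerase III factor TFIIIC, averaged 33.7 ± 1.93, 45.4 ± 1.23 and 29.4 ± 2.43 CPM, and CD3EAP, a subunit of RNA polymerase I, 17.2 ± 0.557, 19.3 ± 1.59 and 14.6 ± 0.906 CPM.

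The 5 cytoskeletal members all moved by small steps. TPM1, an actin-binding tropomyosin, averaged 63.2 ± 1.13 CPM with vector, 74.7 ± 2.32 under p65 WT and 56.3 ± 3.11 under p65 2CS, and the LIM protein CSRP1 126 ± 2.73, 142 ± 3.55 and 107 ± 2.42 CPM. FARP1, a guanine nucleotide exchange factor, averaged 67.7 ± 1.35, 87.9 ± 2.53 and 61.2 ± 1.74 CPM. PPP1R14C, an inhibitor of protein phosphatase 1, averaged 35.6 ± 0.252, 42.2 ± 3.3 and 30.7 ± 1.09 CPM, and EFHD2, a calcium-binding actin bundler, 106 ± 5.53, 117 ± 4.37 and 94 ± 2.88 CPM. The 4 members of vesicle traffic were NSG1, a neuronal endosome protein, the Rab GTPase activator TBC1D13, TMEM127 of endosomes, and ASPSCR1, a tether of glucose transporter vesicles. They had p65 WT means of 1.19 to 1.39 times and p65 2CS means of 0.857 to 0.909 times vector. RAMACL (chromosome 6, 166585604 to 166587594), named for its likeness to the activator of the messenger RNA cap methyltransferase, was at 5.03, 5.06 and 5.19 CPM with vector, 7.47, 6.44 and 6.54 under p65 WT and 4.55, 4.19 and 4.16 under p65 2CS, barely above the lower limit of the rule. The helicase MOV10 averaged 89.2 ± 0.402, 103 ± 2.57 and 78.5 ± 3.68 CPM, and the histone chaperone DNAJC9 65.1 ± 1.22, 72.5 ± 2.04 and 57.8 ± 3.75 CPM.

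The other 10 members fitted none of these roles. SAMD5 (chromosome 6, 147508927 to 147737547), a protein with a SAM domain, ranked second after KCNA1 by the smaller of its 2 steps, with 25.4, 28.5 and 24.5 CPM with vector, 37, 37.2 and 36.3 under p65 WT and 18.1, 20.1 and 18.7 under p65 2CS. Its p65 WT mean was 1.41 times and its p65 2CS mean 0.725 times vector, and all 3 groups were far apart next to their spread. KLHDC9 (chromosome 1, 161098361 to 161100346), a kelch-domain protein, read 5.68, 7.14 and 6.81 CPM with vector, 7.97, 8.51 and 8.3 under p65 WT and 4.67, 4.67 and 4.89 under p65 2CS, with 1 vector library well below the other 2. C12orf75 (chromosome 12, 105235290 to 105396097) was at 50.9, 47.8 and 42.8 CPM with vector, 56.5, 61.1 and 58.4 under p65 WT and 37.3, 40.2 and 41 under p65 2CS, and CYSRT1 (chromosome 9, 137224635 to 137226311) at 8.65, 7.79 and 9.04 CPM with vector, 10.4, 9.19 and 10.7 under p65 WT and 6.42, 7.1 and 7.68 under p65 2CS. The vector libraries of CYSRT1 reached from just above the p65 2CS level to just below the p65 WT level. MTURN, the calcium-binding protein GCA, TMEM64, CCDC78, GINM1 and the protease inhibitor CSTB had p65 WT means of 1.12 to 1.17 times and p65 2CS means of 0.871 to 0.899 times vector.

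Gene lists, some of which held no member, were drawn up with earlier results of these data known, and they show what surrounds the members. Of 85 adhesion genes (integrins, cadherins, tetraspanins and others) with a vector mean of at least 5 CPM, 7, or 8.24%, were members, against 0.568% of all 11270 genes, and none had the opposite pattern, beside 1.22% of all 11270. The 7 were NECTIN2, CD99, CD44, CD9, ITGA2, TSPAN10 and CD82. Of the 140 other adhesion genes tested, edgeR called 45 lower and 1 higher with p65 2CS than with p65 WT. These were 32.1% and 0.714%, beside 17.9% and 13.4% over all genes tested. Their median log2 fold was −0.14 beside 0.00 over all genes tested. Against vector, 32 were higher and 13 lower with p65 WT, and 9 higher and 29 lower with p65 2CS. Over all genes tested, the shares against vector were 16.4% higher and 12.5% lower with p65 WT. With p65 2CS they were 12.1% higher and 11.4% lower, here and for the lists below. The non-members of this list with the largest difference between both forms were near 0 with vector. CLDN2, a claudin of leaky tight junctions, went from 0.437 ± 0.141 CPM with vector to 33.2 ± 4.49 under p65 WT and 1.053 ± 0.215 under p65 2CS. CLDN5 read 0.428 ± 0.228, 17.4 ± 2.59 and 1.75 ± 0.547 CPM, CDH22 0.193 ± 0.0795, 15.1 ± 2.0 and 0.332 ± 0.129 CPM, and CLDN19 0.234 ± 0.136, 7.61 ± 1.36 and 0.169 ± 0.0973 CPM. Unlike the members, CLDN2 and CLDN5 were called higher with p65 2CS than with vector (edgeR adjusted p = 0.00287 and 4.32e-06). CDH22 and CLDN19 were not called there.

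The list of secreted and matrix proteins other than collagens held 3 members (SERPINH1, VCAN and MFAP2) of 75 genes at this level. This was 4.0%, beside 0.568% of all 11270. The list counts the collagen chaperone SERPINH1 and does not hold FSTL3 and SFRP1. Of the 100 others tested, edgeR called 47 lower and 3 higher with p65 2CS than with p65 WT, with a median log2 fold of −0.14. These were 47.0% and 3.0%, beside 17.9% and 13.4% over all genes tested. Against vector, 33 were higher and 11 lower with p65 WT, beside 16.4% and 12.5% of all genes. With p65 2CS against vector, 10 were higher and 23 lower, beside 12.1% and 11.4%. FBLN5, a fibulin of elastic fibres, read 12.4 ± 2.06 CPM with vector, 81.5 ± 4.38 under p65 WT and 14.8 ± 0.548 under p65 2CS. The protease ADAMTS14 read 0.478 ± 0.0544, 5.22 ± 0.254 and 0.705 ± 0.166 CPM, and FBLN2 0.228 ± 0.0678, 1.33 ± 0.147 and 0.389 ± 0.33 CPM. In these 3 the p65 2CS mean was above the vector mean, and edgeR called this for FBLN5 (adjusted p = 0.0224).

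Cholesterol and fatty acid synthesis held 2 members, SREBF1 and SC5D, of 33 genes at this level, or 6.06%. Of its 32 other genes tested, edgeR called 16 lower and 2 higher with p65 2CS than with p65 WT, and 15 lower and none higher with p65 2CS than with vector. With p65 WT against vector the count was 3 higher and 4 lower, 4 and 3 by DESeq2, and 2 and 12 where libraries were scaled by their totals alone, so this direction turns with the scaling. HMGCS1, an early enzyme of the pathway, read 217 ± 3.29 CPM with vector, 214 ± 8.61 under p65 WT and 177 ± 3.02 under p65 2CS, and the sterol sensor INSIG1 78.7 ± 0.971, 79.1 ± 6.36 and 58.9 ± 0.517 CPM. EdgeR called neither with p65 WT and both lower with p65 2CS (edgeR adjusted p = 5.92e-09 and 1.27e-08 against vector). HSD17B7, at 12.2 ± 1.53, 10.5 ± 1.11 and 13.8 ± 1.57 CPM, was higher with p65 2CS than with p65 WT.

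The list of solute carriers and ion pumps, which also takes in channels, held 2 members of 272 genes, the pump ATP2A3 and the channel KCNA1. This was 0.735%, near the 0.568% over all genes. It held 1 gene of the opposite pattern (0.368% beside 1.22%). Of the list's 403 other genes tested, edgeR called 99 lower and 21 higher with p65 2CS than with p65 WT. These were 24.6% and 5.21%, beside 17.9% and 13.4% over all genes tested. The list's non-members with the largest difference were SLC15A3, at 0.125 ± 0.175 CPM with vector, 18.6 ± 1.98 under p65 WT and 0.413 ± 0.243 under p65 2CS, SLC8A3, SLC12A8 and ABCB11, all close to 0 with vector. SLC15A3 and SLC8A3 were called higher with p65 2CS than with vector (edgeR adjusted p = 0.0391 and 1.20e-07). SLC12A8 and ABCB11 were not. Zinc finger proteins held 2 members, ZNF548 and ZNF587B, of 473 genes, or 0.423%, and 22 genes of the opposite pattern, or 4.65% beside 1.22% of all 11270. Of their 543 other genes tested, 181 were called higher and 30 lower with p65 2CS than with p65 WT. These were 33.3% and 5.52%, beside 13.4% and 17.9% over all genes tested. Against vector, 46 were higher and 116 lower with p65 WT, beside 16.4% and 12.5% of all genes. With p65 2CS against vector, 87 were higher and 28 lower, beside 12.1% and 11.4%. Genes of a transcription factor family made up 10.9% of the 64 genes, 23.2% of the 138 genes of the opposite pattern and 9.33% of the 11270. ZSCAN31, ZNF541, ZBTB32 and ZNF705E were this list's largest differences. Only ZNF705E was higher with p65 2CS than with p65 WT among the 4, and it was low throughout.

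The list of known NF-kB targets held no member among its 26 genes at this level. Of the 45 tested, edgeR called 42 higher with p65 WT than with vector and none lower, beside 16.4% and 12.5% of all genes. It called 40 higher with p65 2CS than with vector and none lower, beside 12.1% and 11.4%. With p65 2CS, 35 were called lower than with p65 WT and 1 higher, beside 17.9% and 13.4% of all genes tested. The 64 genes differ from these targets in the direction of p65 2CS against vector by the way they were chosen. The actin and myosin list held 1 member, TPM1, of 65 genes, or 1.54% beside 0.568% of all 11270. Of its 66 other genes tested, 34 were called lower and 2 higher with p65 2CS than with p65 WT. These were 51.5% and 3.03%, beside 17.9% and 13.4% over all genes tested. With p65 2CS against vector, 37 were lower and 1 higher, beside 11.4% and 12.1% of all genes. With p65 WT against vector the actin list had 14 higher and 19 lower, 16 and 14 by DESeq2 and 10 and 26 with totals alone, so that its direction there turns with the scaling. The list of SRF and YAP targets held CAV1, with 16 of 30 others called lower and 3 higher with p65 2CS than with p65 WT. That of immediate early genes held NR4A1, with 13 of 34 others lower and 3 higher. Over all genes tested, 17.9% were lower and 13.4% higher in this comparison. The chaperone list held DNAJC9 and the list of TGF-beta, BMP, WNT and NOTCH genes LEF1. Lists that held no member could lean as far in this comparison. Of 91 tested endoplasmic reticulum and secretory pathway genes, 47 were lower and 3 higher with p65 2CS than with p65 WT. Of 84 nuclear respiratory chain and ATP synthase genes, 38 were lower and 1 higher. Histone, HMG and chromatin genes leaned the other way, with 28 of 156 lower and 42 higher. A lean was therefore not particular to lists that hold members. No test compared any of these lists with other genes.

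**Figure D4:**
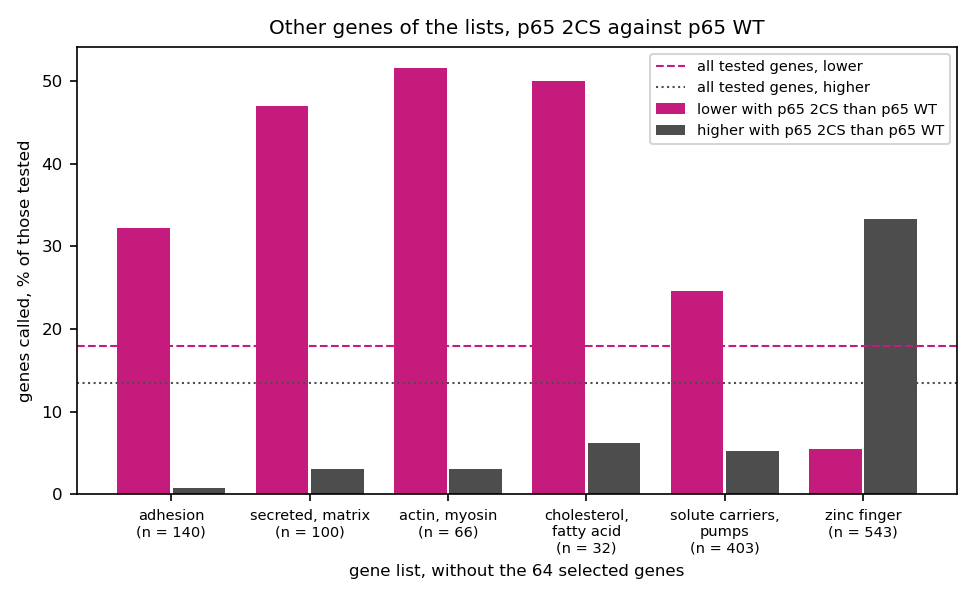
For 6 gene lists (horizontal), without the 64 genes, the percent of tested genes that edgeR called lower or higher with p65 2CS than with p65 WT (vertical), with lines at the percent over all genes tested. The lower bar is the taller one for adhesion, matrix, actin, cholesterol and solute carrier genes, and the higher bar for zinc finger genes. Lists that held none of the 64 genes are not shown, and some of them lean as far.

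Close relatives that were not members are given to show what surrounds the 64 genes. For 38 of the 64, 81 relatives of the same family or complex were listed by name after the members were known, and 73 could be tested. Of these, edgeR called 30 lower and 6 higher with p65 2CS than with p65 WT (41.1% and 8.22%, beside 17.9% and 13.4% over all genes). Against vector, 20 were higher and 17 lower with p65 WT (27.4% and 23.3%, beside 16.4% and 12.5% over all genes), and 14 higher and 23 lower with p65 2CS (19.2% and 31.5%, beside 12.1% and 11.4%). Scaling by totals alone made the split with p65 WT 16 higher and 19 lower. The median log2 folds of the relatives were 0.03, −0.05 and −0.08 for p65 WT and then p65 2CS relative to vector, and for p65 2CS relative to p65 WT. Since relatives had to be non-members, no relative could show the full pattern, and their values say nothing on whether it follows families.

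Among the tetraspanins, CD81 averaged 315 ± 3.98 CPM with vector, 323 ± 10.3 under p65 WT and 283 ± 8.11 under p65 2CS, and edgeR called it in both directions as for its partner CD9 (log2 fold 0.08 ± 0.03, adjusted p = 0.0371 with p65 WT, and −0.14 ± 0.03, adjusted p = 2.54e-04 with p65 2CS). Its mean with p65 WT stayed under the rule's fold limit, and its call there ended with libraries scaled by their totals alone (edgeR adjusted p = 0.364) and without any 1 of vector libraries 1, 2 and 3 or p65 WT libraries 5 and 6 (0.0527 to 0.188). CD63 was not called with p65 WT and fell with p65 2CS (log2 fold −0.25 ± 0.03, edgeR adjusted p = 4.40e-08), and CD151 was lower with both forms (−0.12 ± 0.04 and −0.19 ± 0.03, edgeR adjusted p = 0.00839 and 3.65e-05; without vector library 1 the first was 0.0998). The IGSF8 relatives PTGFRN and IGSF3 instead rose strongly with p65 WT, PTGFRN from 105 ± 2.78 to 218 ± 4.21 CPM and IGSF3 from 40.9 ± 2.06 to 87.7 ± 3.26 CPM, and were also higher with p65 2CS than with vector (log2 folds 0.11 ± 0.04 and 0.36 ± 0.05, edgeR adjusted p = 0.017 and 9.36e-07). The p65 2CS call of PTGFRN ended without vector library 3 or p65 2CS library 8 (edgeR adjusted p = 0.108 and 0.11). EMP1, of the EMP2 and PMP22 family, fell with both forms (−0.38 ± 0.07 and −0.48 ± 0.07, edgeR adjusted p = 3.41e-05 and 9.13e-07).

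Integrins also differed among themselves. ITGB1, the partner of ITGA2, averaged 465 ± 6.89, 428 ± 6.18 and 394 ± 7.63 CPM and was lower with both forms, more so with p65 2CS (log2 folds −0.07 ± 0.03 and −0.22 ± 0.03, edgeR adjusted p = 0.0278 and 1.28e-08). Its call with p65 WT ended without vector library 3 or p65 WT library 6 (edgeR adjusted p = 0.132 and 0.0913), with no expression filter (0.0835), and with only the 6 libraries compared (0.0691). ITGA5, the fibronectin receptor subunit, was higher with both, at 40.6 ± 1.73 CPM with vector, 78.7 ± 5.42 under p65 WT and 50.05 ± 2.28 under p65 2CS, while ITGA6 was lower with p65 2CS only among the vector comparisons. PVR, the relative of NECTIN2, rose from 111 ± 4.42 CPM with vector to 294 ± 14.9 under p65 WT and 142 ± 4.53 under p65 2CS. With all 9 libraries, edgeR called NECTIN1 and NECTIN3 in none of the comparisons. Without p65 2CS library 9, NECTIN1 was called lower with p65 2CS than with vector or p65 WT (edgeR adjusted p = 0.035 and 0.0285). Without p65 WT library 5 it was called lower than with p65 WT (0.0447). CAV2, which assembles with CAV1, averaged 27 ± 1.06, 28.5 ± 0.967 and 24 ± 0.694 CPM, the same order as CAV1, and of its comparisons edgeR called that of p65 2CS with p65 WT (log2 fold −0.28 ± 0.07, adjusted p = 0.00161). PLXNA4 rose from 6.13 ± 0.928 to 16.6 ± 2.32 CPM with p65 WT and stood at 5.07 ± 0.909 CPM with p65 2CS (log2 fold −0.27 ± 0.15 against vector, edgeR adjusted p = 0.203).

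The secreted protein CST3, cystatin C, kin to CSTB, was called higher with p65 WT (0.16 ± 0.03, edgeR adjusted p = 2.51e-04) and lower with p65 2CS (−0.13 ± 0.03, edgeR adjusted p = 0.00385) than with vector. CD81 and CST3 were the relatives that edgeR called in both of these directions. FSTL1, TPM3 and PLXNA1 were called lower with p65 2CS and not called with p65 WT. Listed subunits that work with GTF3C6 and CD3EAP differed among themselves. Of the TFIIIC subunits, GTF3C4 and GTF3C5 were higher with p65 2CS than with vector (log2 folds 0.14 ± 0.03 and 0.14 ± 0.03, edgeR adjusted p = 9.13e-04 and 2.30e-04). GTF3C3 was too (edgeR adjusted p = 0.00577), but not without vector library 3 or p65 2CS library 8. GTF3C1 was called higher with p65 WT (0.07 ± 0.03, edgeR adjusted p = 0.0473), beside a log2 fold of 0.47 for GTF3C6. This GTF3C1 call ended with totals alone (0.431) and with no expression filter (0.0592). It also ended without any 1 library other than vector library 3 (edgeR adjusted p = 0.0529 to 0.178). GTF3C2 was called in no comparison. Of the RNA polymerase I subunits, POLR1A, POLR1B and POLR1E were lower with p65 WT. The POLR1A call ended without vector library 1 or 2 or p65 WT library 4 or 6, and POLR1C was never called. B4GALNT1, which makes gangliosides, rose from 15.2 ± 1.88 to 74 ± 8.24 CPM with p65 WT and was at 15 ± 0.773 CPM with p65 2CS.

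Some member counts may hold reads of other genes. ALG10B has the near-identical copy ALG10, which averaged 18.6 ± 0.76 CPM with vector, 33.7 ± 1.1 under p65 WT and 19.5 ± 1.65 under p65 2CS and rose with p65 WT (log2 fold 0.90 ± 0.07, edgeR adjusted p = 2.85e-13), so both values are uncertain. RAMACL has the parent gene RAMAC, which read 9.04 ± 0.904, 9.19 ± 0.469 and 8.43 ± 0.986 CPM and was not called, and ZNF587B has ZNF587, at 55.5 ± 0.573, 52.7 ± 1.74 and 54.5 ± 2.62 CPM, not called either. The strand setting of the counting is not given in the sources used here, so reads of genes that overlap on opposite strands cannot be told apart. CD3EAP shares 43.5% of its exonic bases with ERCC1, which averaged 76.4 CPM with vector, 81.2 under p65 WT and 82.7 under p65 2CS, with more counts than CD3EAP in every group. DNAJC9 shares 24.0% with FAM149B1 (39.6, 37.7 and 43.1 CPM) and FARP1 21.1% with STK24 (109, 106 and 111 CPM). TPM1 shares 16.1% with TPM1-AS, whose counts of 0.650, 1.35 and 0.477 CPM follow the order of TPM1. For ERCC1, FAM149B1 and STK24 the order of the 3 groups differed from that of the member.

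The members were spread over the genome, with 7 each on chromosomes 1 and 19 and 6 each on 6 and 12. The closest pair, TSPAN10 and ASPSCR1 on chromosome 17, lay 328058 bases apart, and ZNF548 and ZNF587B on chromosome 19 416749 bases apart. Median gene length, as exonic bases in the deposited table, was 4753 for the 64 genes, 6597 for the 138 of the opposite pattern and 5369.5 for the 11270. The median vector level was 46.1 CPM against 41.9 over the 11270, or per length 8.81 against 7.76 counts per kilobase and 1000000 counts.

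Promoters are shown because NF-kB acts by binding a short DNA site, the kB motif, near its targets. RefSeq windows on GRCh38.p14 from 250 bases before to 50 after the start site were matched by symbol for 56 of the 64 genes. A kB motif, searched on both strands, stood in 6 of the 56 (10.7%): SERPINH1, SREBF1, BST2, PPP1R14C, GCA and RAMACL. The share was 6.5% of 9266 windows over the 11270 genes and 6.67% of 120 windows of the opposite pattern. The 4 of these 6 with the highest vector CPM are given 5′ to 3′ on the gene's own strand, with the match in capitals, and the bases that match lie on the opposite strand in all 4.
SERPINH1: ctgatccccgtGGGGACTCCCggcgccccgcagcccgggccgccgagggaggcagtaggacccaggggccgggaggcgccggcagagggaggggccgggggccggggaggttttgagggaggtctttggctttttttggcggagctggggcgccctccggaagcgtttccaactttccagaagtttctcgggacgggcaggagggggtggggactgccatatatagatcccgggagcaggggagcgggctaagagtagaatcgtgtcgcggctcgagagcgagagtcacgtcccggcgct
SREBF1: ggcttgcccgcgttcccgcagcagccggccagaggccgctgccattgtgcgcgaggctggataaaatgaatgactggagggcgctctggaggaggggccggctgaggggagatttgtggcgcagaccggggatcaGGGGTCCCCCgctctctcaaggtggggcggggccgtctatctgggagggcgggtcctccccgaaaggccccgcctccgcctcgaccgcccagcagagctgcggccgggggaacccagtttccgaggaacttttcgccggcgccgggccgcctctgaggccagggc
BST2: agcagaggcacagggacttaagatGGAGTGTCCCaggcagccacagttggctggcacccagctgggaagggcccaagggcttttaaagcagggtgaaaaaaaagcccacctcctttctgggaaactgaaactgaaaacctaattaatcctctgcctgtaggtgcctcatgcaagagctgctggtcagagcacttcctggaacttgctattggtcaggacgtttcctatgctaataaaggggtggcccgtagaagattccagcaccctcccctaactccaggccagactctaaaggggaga
PPP1R14C: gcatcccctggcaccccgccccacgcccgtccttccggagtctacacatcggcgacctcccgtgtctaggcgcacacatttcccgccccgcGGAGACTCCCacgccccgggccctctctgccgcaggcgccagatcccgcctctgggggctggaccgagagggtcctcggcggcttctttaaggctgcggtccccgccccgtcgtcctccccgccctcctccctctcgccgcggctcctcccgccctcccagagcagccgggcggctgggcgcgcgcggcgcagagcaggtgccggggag
The windows are chr11:75562003-75562302 on the plus strand for SERPINH1, chr17:17836937-17837236 on the minus strand for SREBF1, chr19:17405581-17405880 on the minus strand for BST2, and chr6:150142794-150143093 on the plus strand for PPP1R14C. The match in SERPINH1 begins 239 bases before the start site, in BST2 226, in PPP1R14C 159 and in SREBF1 115. A match describes the letters of the window and is not a binding site shown by these data.

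The SRF motif known as the CArG box was in 3 of 56 windows (5.36%), those of LEF1, FSTL3 and ZNF548, against 1.07% of all windows. The AP-1 motif TGANTCA was in 4 (7.14% against 3.97%), those of GJA1, MFAP2, TSPAN10 and CYSRT1, with 2 matches each in MFAP2 and TSPAN10. The TEAD motif GGAATG was in 8.93% against 10.5%, the GC box GGGCGG in 69.6% against 72.6%, the CCAAT box in 32.1% against 37.2%, the TATA box TATAAA in 1.79% against 4.75%, and the CRE motif TGACGTCA in 1.79% against 3.51%, all searched on both strands, with matches of different motifs allowed to overlap. The median GC content was 68.5% in the members, 63.7% in the opposite pattern and 66.0% over the 9266 windows, and ranged from 47.0% to 85.3% in the members.

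The limit of 1.1 times fell among genes that differ little. Just inside it, by the smaller of the 2 steps, were ASPSCR1 at 1.1004, CTBP1 at 1.101, SERPINH1 at 1.102 and SFRP1 at 1.103. Just outside were IL17RD at 1.09998, LAPTM4A at 1.0997, RAB11B at 1.098 and TTN at 1.097, whose libraries were ordered in the same way. The 3 genes set aside by name had vector, p65 WT and p65 2CS means of 288, 346 and 261 CPM for MSN, 279.7, 337 and 244 CPM for COL5A1, and 252, 323 and 217 CPM for MARCKS.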

How the data were processed

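Poly-A RNA was sequenced from 9 libraries of p65 knockout HEK293A cells, 3 each with vector, p65 WT and p65 2CS. HISAT2 2.0.5 was the aligner, per the submitters' processing notes. Which program counted reads, its handling of strand, and the build were not given in the sources used here. Deposited by the authors were unnormalized whole-number counts for 58735 genes with symbols, positions, lengths and biotypes. Identifiers, starts, ends and strands matched GENCODE 29 for all 58735, so positions are given on GRCh38.

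CPM was computed here from the deposited counts and column totals, and the 64 genes were chosen on it. The members, gene lists, roles and relatives were chosen with earlier results of these data known. Counts were tested with edgeR 4.0.16 in R 4.3.3 (expression filter, TMM scaling, quasi-likelihood test, 1 fit of all 9 libraries, 3 comparisons), with Benjamini-Hochberg adjustment over 18195 genes and a threshold of 0.05, and the procedure was tested on simulated data. Log2 folds are from this fit, with the standard error implied by its test. Where a log2 fold and a CPM ratio stand together, they differ by the scaling. Alternatives were DESeq2 1.42.0, other scalings, filters and fold limits, and leaving out each library. Within groups, any pair of libraries differed beyond sampling noise (chi-square over its degrees of freedom, 1.91 to 2.64).

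Named in full were the 15 members with the largest smaller step, the 5 with the highest vector CPM, members in a list that holds 2 or more, up to 4 non-members of each such list with the largest difference between both p65 forms, and 4 genes on each side of the fold limit. Some genes that this rule names are not reported here. Other members and all relatives were named after their values were seen. Promoter sequences are from RefSeq (GRCh38.p14).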

Additional observations from a re-analysis of the deposited data

How the results depend on the processing

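Because the steps were small, the choice of genes moved with scaling and limits. The rule chose 64 genes with TMM scaling (53 of them shared with the 64 described), 63 with DESeq2 size factors (48 shared) and 39 with totals that left out RELA (36 shared). It chose 7 with a fold limit of 1.2 and 157 with a fold limit nearer to 1 (5% in place of 10%), 70 with a vector minimum of 1 CPM, 48 with a minimum of 20 CPM, and 67 with no name left out, an alternative added after the data were seen. Leaving out 1 library gave 63 to 83 genes, of which 57 to 62 were shared. The other 3 scalings all kept 36 of the 64, 41 were kept whichever library was left out, and 30 met both conditions. The opposite pattern held 138 genes with column totals, 103 with TMM or DESeq2 factors and 208 with totals that left out RELA, so which pattern was more frequent did not change.

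The direction of each of the 64 genes was fixed by the rule, so refits of the same libraries say nothing about its stability. The count called lower with p65 2CS than with vector was 48, and 40 with DESeq2, 38 without an expression filter, 51 with totals alone and 31 to 48 with 1 library left out, the lowest without vector library 2. Scaling by totals alone turned the split over all genes from 2976 higher and 2268 lower to 2561 and 3642 for p65 WT against vector, and from 2431 and 3254 to 3098 and 2820 for p65 2CS against p65 WT. No paired analysis was possible because the groups share no replicate number.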
